A study of Mus musculus with 4 samples.

Results

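Interferon-stimulated genes are the genes that cells switch on when interferon binds its receptor. A list of 39 such genes was followed by name, from the sensors of viral RNA to the proteins that block viral growth. Of the 39, 36 had an array probe whose transcript carried the gene's RefSeq name, and all 36 passed the filter on dim probes. Herc6, Mx1 and Mx2 had no probe matched in this way. The 36 genes were read within 21320 genes and unnamed transcripts tested.

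The samples came from NOD mice, an inbred strain prone to autoimmune diabetes, and from a pair of lymph nodes beside the pancreas. The gastric node (GLN), which the labels also name the left pancreatic lymph node, and the pancreatico-duodenal node (PDLN), its right counterpart, were taken from each of 4 female NOD mice aged 12 wk, with no treatment given in the labels. RNA of the whole gastric node carried the red dye Cy5 and RNA of the whole pancreatico-duodenal node the green dye Cy3, and both nodes of 1 mouse shared 1 array. The value of a gene in a mouse is the log2 ratio of gastric over pancreatico-duodenal node, so a value above 0 means more signal in the gastric node. The dyes were never swapped, so an effect of dye and an effect of node cannot be told apart in the mean over mice. All 4 arrays lay on 1 slide. In whole nodes, a lower share of a cell type and less RNA per cell cannot be told apart.

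Type I interferons (alpha and beta) act through the receptor chains Ifnar1 and Ifnar2 and the kinases Jak1 and Tyk2, which phosphorylate Stat2. Together with Irf9 it joins a complex that binds a short DNA element, the interferon-stimulated response element, before the genes listed here. Interferon gamma uses its own receptor and acts through a different element, the gamma-activated site. Some of these genes, such as the guanylate-binding proteins and the immunity-related GTPases, respond strongly to interferon gamma, and others, such as the Ifit and Oas genes, mainly to type I interferon.

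The stretches before 5 of the genes are shown because the results turn on them: Isg15, Ifit3 and Ifit1 stood out most in the gastric node of mouse 2, Igtp had a ratio above 0 in every mouse, and Lgals3bp was the one gene of the list called. Each is the 250 bases before an annotated start of the gene, from RefSeq on GRCm38.p6, 5′ to 3′ on the gene's strand. Capitals mark each pair of GAAA tetramers with any 2 bases between them, the core of the response element. TTTC tetramers spaced in the same way mark it on the other strand. Where a gene has several annotated starts, the one with the most matches to this core is shown, so the matches need not hold for every start. The stretches lie at chr4:156200819-156201068 (minus strand), chr19:34583279-34583528 (plus), chr19:34640639-34640888 (plus), chr11:58199306-58199555 (plus) and chr11:118401960-118402209 (minus).
Isg15: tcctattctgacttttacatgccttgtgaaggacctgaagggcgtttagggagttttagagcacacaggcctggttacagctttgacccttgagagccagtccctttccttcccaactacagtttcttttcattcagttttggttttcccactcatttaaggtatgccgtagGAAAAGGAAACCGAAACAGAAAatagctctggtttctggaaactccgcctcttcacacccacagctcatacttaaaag
Ifit3: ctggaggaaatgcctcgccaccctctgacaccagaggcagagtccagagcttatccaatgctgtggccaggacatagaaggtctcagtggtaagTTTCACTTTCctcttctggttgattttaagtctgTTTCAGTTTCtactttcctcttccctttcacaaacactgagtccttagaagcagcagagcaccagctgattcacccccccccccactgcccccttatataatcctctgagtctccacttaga
Ifit1: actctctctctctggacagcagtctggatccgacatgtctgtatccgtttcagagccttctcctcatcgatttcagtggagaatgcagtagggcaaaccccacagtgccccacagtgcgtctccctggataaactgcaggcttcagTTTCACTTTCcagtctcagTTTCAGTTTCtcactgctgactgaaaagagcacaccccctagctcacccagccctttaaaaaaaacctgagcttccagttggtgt
Igtp: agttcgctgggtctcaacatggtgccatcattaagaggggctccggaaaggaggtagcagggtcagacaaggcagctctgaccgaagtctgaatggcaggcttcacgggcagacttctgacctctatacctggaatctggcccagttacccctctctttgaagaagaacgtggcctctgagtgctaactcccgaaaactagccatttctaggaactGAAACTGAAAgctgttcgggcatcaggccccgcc
Lgals3bp: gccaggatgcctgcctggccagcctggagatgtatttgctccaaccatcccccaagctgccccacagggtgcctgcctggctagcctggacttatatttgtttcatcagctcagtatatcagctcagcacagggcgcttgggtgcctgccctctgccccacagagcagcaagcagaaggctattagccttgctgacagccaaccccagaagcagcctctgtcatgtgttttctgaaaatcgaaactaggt
In Isg15, 3 overlapping matches begin 78, 72 and 66 bases before the start. Ifit3 has matches at 156 and 122 bases, Ifit1 at 104 and 85 bases and Igtp at 34 bases before the start, and Lgals3bp has none in this window.

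A promoter window was found for 30 of the 39 genes, each window running from 250 bases before to 50 after an annotated start. This core, on either strand, was present in 17 of these 30 (56.7%), and in 1079 of 27025 genes with such a window (3.99%). The palindromic gamma-activated site TTCNNNGAA was present in 8 of 30 (26.7%) and in 2582 of 27025 genes (9.55%). A gene with several annotated starts was counted once if any window held the letters. The range of the ratio over the 4 mice overlapped between genes with and without the core. It had a median over genes of 0.87 (0.19 to 2.34) in the 17 with it and of 0.78 (0.19 to 1.43) in the 12 measured genes without it. The excess in the gastric node of mouse 2 over the other gastric nodes, described further on, had a median of 0.47 in the former and 0.67 in the latter. A match of letters is a description of the sequence and not evidence that a factor was bound.

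The list was chosen with it known that mouse 2 differed in sign, so what follows describes mouse 2 and does not test it. As a group, the interferon-stimulated genes did not differ between the nodes in one direction over the 4 mice. Their ratios varied more from mouse to mouse than those of all features (median SD 0.39 against 0.12, and 0.2 against 0.12 without mouse 2). In mouse 2 the gastric node carried more of their RNA, in mouse 3 the pancreatico-duodenal node did, and in mice 1 and 4 the balance lay slightly towards the pancreatico-duodenal node. The median log2 ratio of the 36 genes was -0.13 in mouse 1, 0.44 in mouse 2, -0.29 in mouse 3 and -0.09 in mouse 4. The median over all 21320 features lay between 0.01 and 0.03 in each mouse. When arrays were centred on their medians and no loess was run, all features together had a median of 0.32, and the medians of the list lay -0.12, 0.59, -0.04 and -0.01 from the median of all features in mice 1 to 4, so mouse 2 stayed apart and mouse 3 did not. With loess, the mean of the 4 mouse medians was -0.02 ± 0.32 (SD, n = 4), so the differences between mice were much larger than the mean difference between nodes.

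**Figure D1:**
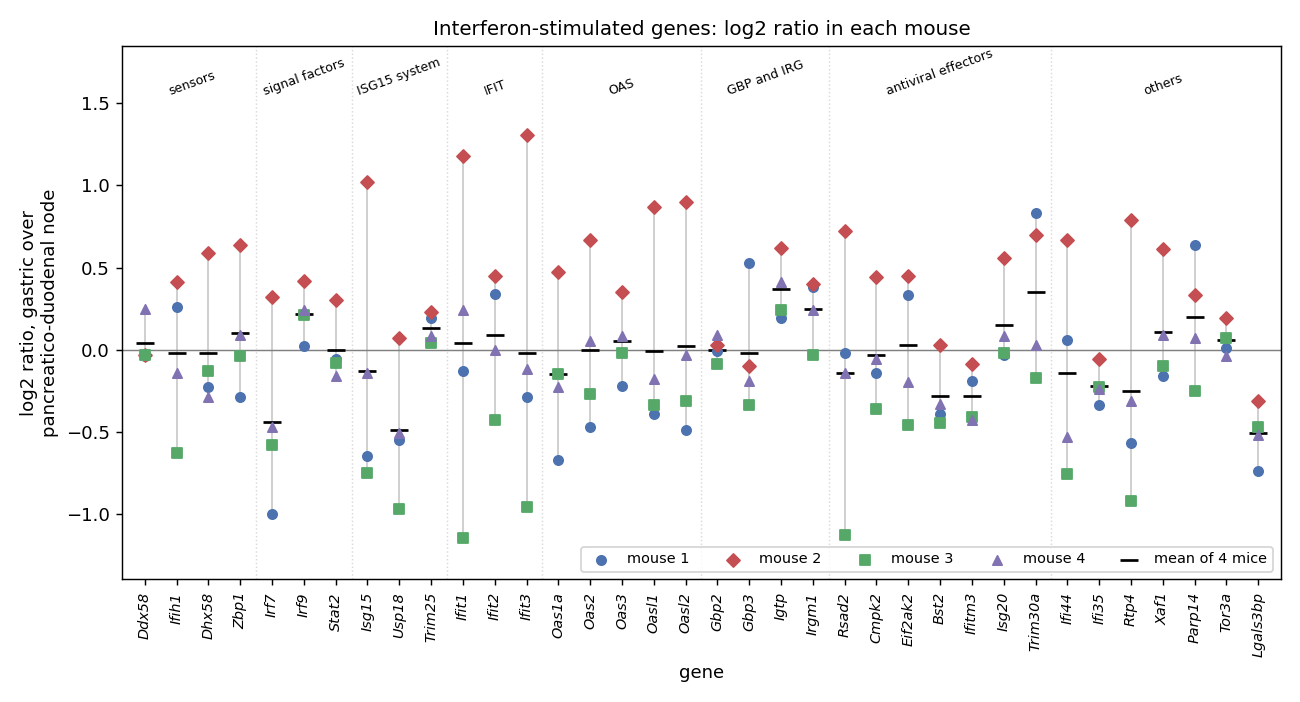
Log2 ratio of gastric over pancreatico-duodenal node (vertical axis, log2 scale) of the 36 interferon-stimulated genes (horizontal axis, grouped by role), 1 symbol per mouse and a black bar at the mean of 4 mice. The red diamonds of mouse 2 are the highest symbol of 31 of the 36 genes and most bars lie near 0, while Lgals3bp lies below 0 in all 4 mice (its mean turned to 0.17 with median centring).

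Of the 36 genes, 31 lay above 0 in mouse 2, where 55.9% of all features did. Only 4 lay above 0 in mouse 3, against 53% of all features. The counts were 12 in mouse 1 and 15 in mouse 4, where 55.1% of all features lay above 0 in each. Mouse 2 held the highest of the 4 ratios for 31 genes, against 19.4% of features, and mouse 3 the lowest for 18, against 31.7% of features. For 13 genes mouse 2 was above 0 and the other 3 mice below it, a pattern shown by 3.18% of features. Median centring put 24, 22 and 32 genes above 0 in mice 1, 3 and 4, where it put 74.9, 74.2 and 75% of all features above 0. In mouse 2 it put 36 of 36 genes above 0, against 75.5% of features. The 13 genes included Isg15, Usp18, Ifit3, Oas1a, Oasl1, Oasl2, Irf7 and Rtp4.

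Only 1 of the 36 genes, Lgals3bp, passed the test of a mean difference from 0 (limma, adjusted p under 0.05 after Benjamini-Hochberg adjustment over all features), while 7.54% of all features did. It was lower in the gastric node, as were 4.45% of features; none of the 36 was higher, against 3.09% of features. At an unadjusted p under 0.05, 9 of the 36 passed, against 30.7% of features. The share of the list that passed was thus not above the background by either measure. Only 3 genes were above 0 in all 4 mice (Irf9, Trim25 and Igtp; 24.1% of features) and 3 were below 0 in all 4 (Ifitm3, Ifi35 and Lgals3bp; 17% of features).

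The spread between mice was wide. The SD of a gene's ratio over the 4 mice had a median of 0.39 in the list and of 0.12 over all features, and of 0.13 over the features within the list's range of mean intensity. The range from the lowest to the highest mouse exceeded 1 on the log2 scale, a doubling, for 14 of the 36 genes and for 4.01% of features. Without mouse 2 the list's median SD was 0.2 and that of all features 0.12.

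Among the sensors that detect foreign nucleic acid, Ifih1 (MDA5), Dhx58 (LGP2) and Zbp1 were highest in mouse 2. Ddx58 (RIG-I), read by its brightest probe, was not. Zbp1, a sensor of Z-form nucleic acid, had ratios of -0.29, 0.64, -0.04 and 0.09 in mice 1 to 4. Dhx58 had -0.23, 0.59, -0.13 and -0.29. Ifih1, the sensor of long double-stranded RNA, had 0.26, 0.41, -0.63 and -0.14, so that mice 1 and 2 were high and mouse 3 low. Ddx58, the sensor of RNA with free phosphate ends, lay between -0.04 and -0.03 in mice 1, 2 and 3 and reached 0.25 in mouse 4. Dimmer Ddx58 probes did not share this pattern. They read 0.31, 0.08, 0.38 and 0.22, then 0.02, 0.04, -0.1 and -0.13, then 0.14, 0.11, -0.07 and 0.06. Mouse 4 was the highest in none of them, so its high value rests on a single probe. None of the 4 sensor genes passed the test between nodes (limma adjusted p from 0.668 to 0.951). With median centring, where 12821 of all features were called higher, Ddx58 (0.49), Zbp1 (0.68) and Dhx58 (0.44) passed, with limma adjusted p of 0.00164, 0.00806 and 0.036.

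All 3 factors that carry the signal had their highest ratio in mouse 2, and none passed the test. Irf7, the factor that amplifies type I interferon production, had ratios of -1, 0.32, -0.58 and -0.47, below 0 in every mouse but mouse 2, with a mean of -0.44 ± 0.55 (SD, n = 4; limma adjusted p = 0.211). Irf9, the DNA-binding part of the Stat complex, had 0.02, 0.42, 0.21 and 0.24, a mean of 0.22 ± 0.16 (SD, n = 4; limma adjusted p = 0.109). A further, dimmer Irf9 probe read the other way, with a mean of -0.16, so the direction of Irf9 is uncertain. Stat2, its partner, had -0.06, 0.3, -0.08 and -0.16 and a mean of 0.

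Isg15, a ubiquitin-like protein that is conjugated to other proteins and also secreted, had ratios of -0.65, 1.02, -0.75 and -0.14. The gastric node of mouse 2 thus held more signal than its other node, and the remaining mice lay on the opposite side of 0. Usp18, the protease that removes Isg15 and damps the interferon receptor, had -0.55, 0.07, -0.97 and -0.51, with a mean of -0.49 ± 0.43 (SD, n = 4; limma adjusted p = 0.11). Trim25, a ubiquitin ligase that activates RIG-I, had 0.19, 0.23, 0.04 and 0.08, a small ratio in every mouse.

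The Ifit genes, whose proteins bind viral RNA that lacks host cap marks, included the pair with the widest ranges over the mice, Ifit1 (2.34) and Ifit3 (2.27). Ifit3 had ratios of -0.29, 1.31, -0.96 and -0.12, and Ifit1 had -0.13, 1.18, -1.15 and 0.24. In both, mouse 2 was high, mouse 3 low and mice 1 and 4 near 0. Ifit2 varied less, with 0.34, 0.45, -0.43 and 0 and a range of 0.87. The means over mice were -0.02 ± 0.95 for Ifit3, 0.04 ± 0.97 for Ifit1 and 0.09 ± 0.39 for Ifit2 (SD, n = 4). Ifit3 has a near-identical neighbour copy, Ifit3b, and its probe may read both.

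The Oas genes make the messenger that activates RNase L, or in the case of the Oas-like genes are relatives with other antiviral roles. All 5 were above 0 in mouse 2, and none was in mouse 1 or mouse 3. Oasl2 had ratios of -0.49, 0.9, -0.31 and -0.03, Oasl1 -0.39, 0.87, -0.34 and -0.18, and Oas2 -0.47, 0.67, -0.27 and 0.05. Oas1a (-0.67, 0.47, -0.15 and -0.23) and Oas3 (-0.22, 0.35, -0.02 and 0.08) had the same order of highest and lowest mouse. Oas1a belongs to a cluster of closely similar copies that its probe may not separate.

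The guanylate-binding proteins and immunity-related GTPases act in the defence against pathogens that live in vacuoles inside cells. Of the 4 measured, Igtp and Irgm1 had their highest ratio in mouse 2, and all 4 were highest in the gastric node of mouse 2 among the gastric nodes. Gbp2 was nearly level in all 4 mice, at -0.01, 0.03, -0.09 and 0.09. Gbp3 was highest in mouse 1, at 0.53, -0.1, -0.34 and -0.19. Igtp (Irgm3) had ratios of 0.19, 0.62, 0.24 and 0.41, above 0 in all 4 mice. Its mean of 0.37 ± 0.19 (SD, n = 4), a 1.29-fold difference, missed the threshold (limma adjusted p = 0.0536). It passed without mouse 1 (limma adjusted p = 0.0355), and over the 15 other settings tried the adjusted p ran from 0.000325 to 0.204. Irgm1 had 0.38, 0.4, -0.03 and 0.24, and a further Irgm1 probe 0.41, 0.45, 0.02 and 0.24.

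Of the other antiviral effectors, Rsad2 (viperin, which makes a chain-terminating nucleotide) varied most, with ratios of -0.02, 0.72, -1.13 and -0.14. Cmpk2, its neighbour gene and a mitochondrial nucleotide kinase, had -0.14, 0.44, -0.36 and -0.06. Both were highest in mouse 2 and lowest in mouse 3. Eif2ak2 (PKR), the kinase that stops translation on sensing double-stranded RNA, had 0.33, 0.45, -0.46 and -0.2, and Isg20, an exonuclease, had -0.03, 0.56, -0.02 and 0.08. A further Isg20 probe gave -0.17, 0.51, -0.09 and 0.01, again with mouse 2 alone high.

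Trim30a, which belongs to a family of similar copies, was high in mouse 1 (0.83) as well as in mouse 2 (0.7), and had -0.17 and 0.03 in mice 3 and 4. Bst2 (tetherin), which holds budding virus at the cell surface, had -0.39, 0.03, -0.45 and -0.33, a mean of -0.28 ± 0.21 (SD, n = 4; limma adjusted p = 0.0988). Ifitm3, which blocks fusion of virus in endosomes, had -0.19, -0.09, -0.41 and -0.43, a mean of -0.28 ± 0.17 (SD, n = 4; limma adjusted p = 0.0715). With median centring the means of Bst2 and Ifitm3 turned to 0.36 and 0.32. Ifitm3 also has close relatives that its probe may read.

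Among the remaining genes, Rtp4, a chaperone of receptors, had ratios of -0.57, 0.79, -0.92 and -0.31, and Ifi44 had 0.06, 0.67, -0.76 and -0.53. Xaf1, which favours cell death, had -0.16, 0.61, -0.1 and 0.09. In these 3 genes mouse 2 stood above the other mice. Parp14, an ADP-ribosyl transferase, was highest in mouse 1 by its brightest probe, at 0.64, 0.33, -0.25 and 0.07. A further Parp14 probe read 0.28, 0.39, -0.1 and 0.04, highest in mouse 2. Another, dimmer still, read 0.12, -0.02, -0.15 and 0.08, highest in mouse 1. Tor3a stayed small, between -0.04 and 0.19, and Ifi35, a partner of Nmi, was below 0 in all 4 mice, with a mean of -0.22 ± 0.12 (SD, n = 4; limma adjusted p = 0.0763), which turned to 0.34 with median centring.

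Lgals3bp, the gene of a secreted glycoprotein that binds galectins, fell in the gastric node relative to the pancreatico-duodenal node. Its ratios were -0.74, -0.31, -0.47 and -0.52 in mice 1 to 4, below 0 in 4 of 4 mice, and mouse 2 again had the highest value. The mean was -0.51 ± 0.18 (SD, n = 4), a level 1.42-fold lower in the gastric node (limma adjusted p = 0.0303). On the log2 intensity scale its level was 13.53, 13.77, 13.43 and 13.37 in the gastric node and 14.27, 14.08, 13.9 and 13.9 in the other, so the nodes did not overlap.

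The call for Lgals3bp depended on the mice used. The adjusted p was 0.0212 without mouse 1, 0.134 without mouse 2, 0.0912 without mouse 3 and 0.156 without mouse 4 (limma). Without mouse 1, 10.2% of features and 3 of the 36 genes passed. Without mouse 2, 0% of features passed, without mouse 3 0.0141% and without mouse 4 0.00469%, and in each case none of the 36 genes, of which 13, 9 and 4 had an unadjusted p under 0.05 in these 3 fits (4343, 5732 and 4299 of all features). Centring each array on its median in place of loess turned Lgals3bp to 0.17, with an adjusted p of 0.177. Over the 15 other settings tried its adjusted p ran from 0.0212 to 0.177.

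To see in which node mouse 2 stood apart, the level of each gene was read in each channel on the log2 intensity scale. Beforehand, all arrays were given the same distribution of the average intensity of both channels (Aquantile). Each level is given as its distance from the gene's own mean over the 4 mice in that node. In the gastric node the median distance of the 36 genes was -0.07, 0.47, -0.22 and -0.15 in mice 1 to 4. In the pancreatico-duodenal node it was 0.07, 0.01, 0.06 and -0.11. The difference lay in the gastric node of mouse 2, which was the highest of the 4 gastric nodes for 34 of 36 genes, while 14.1% of all features were highest there. The pancreatico-duodenal node of mouse 2 was the highest of its kind for 5 of 36, against 20.8% of features.

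**Figure D2:**
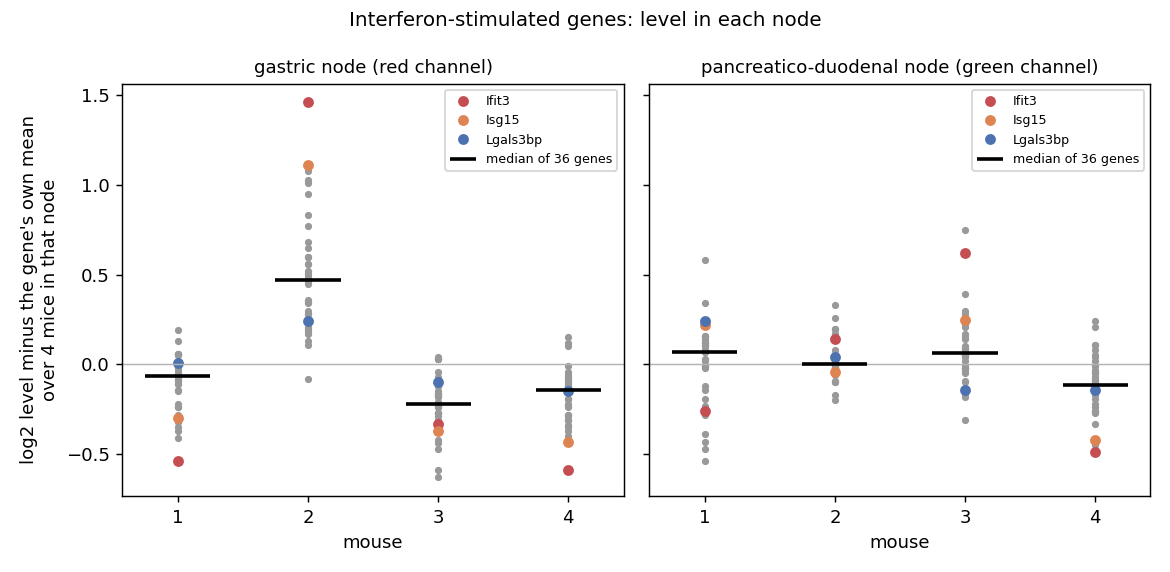
Log2 level of each of the 36 genes minus the gene's own mean over 4 mice in the same node (vertical axis, log2 scale), for the gastric node (left) and the pancreatico-duodenal node (right) of mice 1 to 4 (horizontal axis), 1 point per gene and a black bar at the median. In the gastric node, the bar of mouse 2 lies at 0.47 and those of the other mice between -0.22 and -0.07, and in the pancreatico-duodenal node the bars lie between -0.11 and 0.07.

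The level of Ifit3 in the gastric node was 8.83, 10.83, 9.04 and 8.77 in mice 1 to 4, and in the pancreatico-duodenal node 9.12, 9.52, 10 and 8.89. The gastric node of mouse 2 was the highest of all 8 nodes, and the pancreatico-duodenal node of mouse 3 came next. Isg15 had 8.99, 10.4, 8.92 and 8.86 in the gastric node and 9.64, 9.38, 9.67 and 9 in the other. Ifit1 had 6.92, 8.41, 6.89 and 7.1 in the gastric node and 7.04, 7.23, 8.04 and 6.85 in the other, with the same pair of nodes on top as for Ifit3. Rtp4 had 10.55, 11.74, 10.37 and 10.5 against 11.12, 10.96, 11.29 and 10.81.

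In the gastric node of mouse 2, Ifit3 was 1.95 above the mean of the other 3 gastric nodes on the log2 scale, or 3.85-fold. Isg15 was 2.79-fold, Ifit1 2.72-fold, Rsad2 2.59-fold, Ifi44 2.54-fold, Rtp4 2.41-fold, Oasl2 2.16-fold and Irf7 2.03-fold above that mean. All 8 lay above each of the other 3 gastric nodes. In the pancreatico-duodenal node the same difference ran from -0.27 (Oasl1) to 0.44 (Gbp3) over the 36 genes. Some genes showed little of it: Trim25 was at -0.11, Tor3a at 0.15 and Ddx58 at 0.17 in the gastric node. Gbp2 and Gbp3 differed about as much in the pancreatico-duodenal node (0.34 and 0.44) as in the gastric node (0.37 and 0.34). These are single nodes of 1 mouse, so no test was made.

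**Figure D3:**
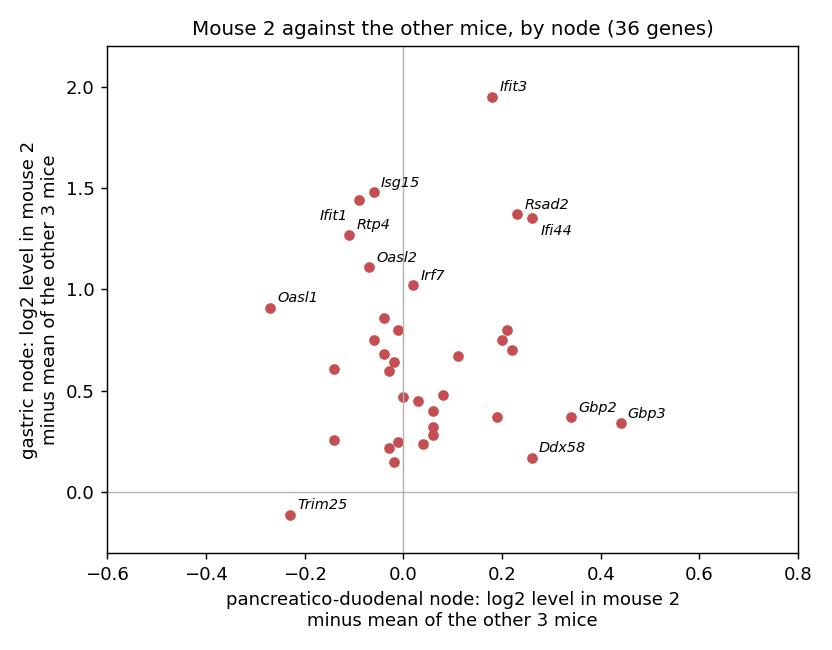
Level in mouse 2 minus the mean of the other 3 mice, in the pancreatico-duodenal node (horizontal axis) and in the gastric node (vertical axis), both on the log2 scale, 1 point per gene for 36 genes. Points reach 1.95 (Ifit3) on the gastric axis and lie between -0.27 and 0.44 on the other, and Trim25, at -0.11, is the 1 gene below 0 on the gastric axis.

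The spread of levels was larger in the gastric node: the median SD over mice was 0.33 there for the 36 genes and 0.1 for all features, and 0.18 against 0.11 in the pancreatico-duodenal node. Without mouse 2 the gastric value was 0.13 against 0.11 for all features, and the pancreatico-duodenal value 0.18 against 0.1. The lowest pancreatico-duodenal level lay in mouse 4 for 20 of the 36 genes, and the share of all features lowest there was not computed. In that node 8 of the 36 genes lay above their own means, against 54.8% of all features. In the pancreatico-duodenal node of mouse 3 the 3 Ifit genes had a median 0.62 above their own means. That same node had pancreatic enzyme transcripts far above the others, with 13 exocrine markers at a median of 5.08 above their own means, whose part in the result was not tested.

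The rest of the interferon pathway was counted in the same test, in lists of genes that make, receive or restrain the signal. Of 8 ligand genes measured of 21 listed, Ifng, the gene of interferon gamma, rose in the gastric node. Its ratios were 0.49, 1.14, 0.73 and 0.64, above 0 in 4 of 4 mice, with a mean of 0.75 ± 0.28 (SD, n = 4; limma adjusted p = 0.0295). Ifnb1, the gene of interferon beta, had a probe that did not pass the filter on dim signals, so its level was not compared. Of 10 receptor and Jak-Stat genes measured of 11 listed, Tyk2 fell in the gastric node, with ratios of -0.8, -0.64, -0.7 and -0.44 (mean -0.65 ± 0.15, SD, n = 4; limma adjusted p = 0.0228). With median centring it was at -0.13 and did not pass (limma adjusted p = 0.214). Ifnar1, at 0.08 ± 0.11 (SD, n = 4), did not pass (limma adjusted p = 0.397).

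Of 17 genes measured that induce interferon, of 19 listed, Irf5, a factor downstream of Toll-like receptors, fell (-0.33 ± 0.1, SD, n = 4; limma adjusted p = 0.033), but was higher with median centring, at 0.23 (limma adjusted p = 0.016). The list of brakes on the pathway held 10 genes, all measured. It also took in Uba7 and Ube2l6, which attach Isg15 to proteins rather than restrain the signal. Of these 10 genes, Ptpn11, the phosphatase Shp2, rose (0.28 ± 0.05, SD, n = 4; limma adjusted p = 0.0325). With the mean of its probes Ptpn11 was at 0.14 and did not pass (limma adjusted p = 0.149), nor did it with the scanner software's signals (0.0712). The medians of these 4 lists lay between -0.13 and 0.12 in each mouse. Like Lgals3bp, no gene of these lists passed without mouse 2, without mouse 3 or without mouse 4.

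A list of 54 further interferon-inducible genes, 44 of them measured, gave 1 gene higher and none lower, against 3.09% and 4.45% of features. The gene was Shisa5, which acts in cell death, at 0.34 ± 0.06 (SD, n = 4; limma adjusted p = 0.0257). With the mean of its probes Shisa5 was at 0.16 and did not pass (limma adjusted p = 0.0799), nor did it with the scanner software's signals (0.0737). At an unadjusted limma p under 0.05, 13 of the 44 passed, a share near the 30.7% of all features. The median ratio of the 44 was 0.13, 0.21, -0.1 and 0.05 in mice 1 to 4. Of the 44, 35 lay above 0 in mouse 2 and 13 in mouse 3, against 55.9% and 53% of features. The gastric node of mouse 2 was the highest gastric node for 34 of the 44, against 14.1% of features. The pancreatico-duodenal node of mouse 2 was the highest of its kind for 18 of the 44, a share also above the 20.8% of features. The median of the 44 in mouse 2 lay 0.08 above their own means in that node and 0.19 above in the gastric node. Of genes picked here after their values were seen, the chemokine gene Cxcl10 had 0.03, 0.7, -0.84 and -0.39, highest in mouse 2 and lowest in mouse 3. Ifi204 (1.03, 0.48, -0.19 and 0.33) and Iigp1 (0.97, 0.18, -0.67 and -0.29) were highest in mouse 1. So were the brightest probes of Gbp3, Trim30a and Parp14.

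**Figure D4:**
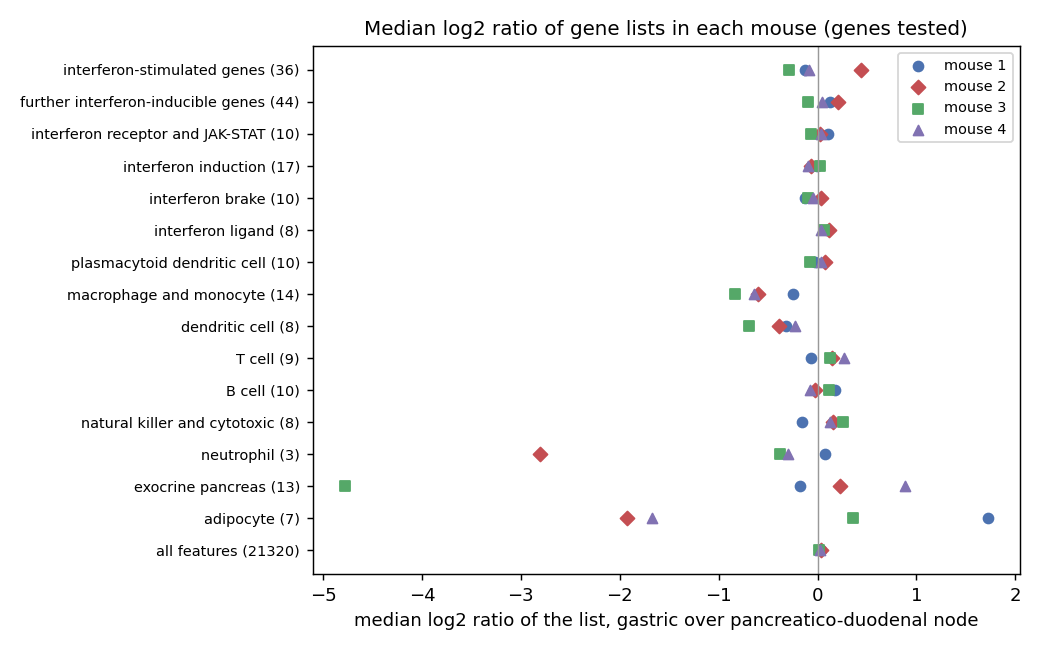
Median log2 ratio of gastric over pancreatico-duodenal node (horizontal axis, log2 scale) of each list of genes (vertical axis, number of genes tested in brackets), 1 symbol per mouse. The interferon-stimulated genes spread from -0.29 to 0.44, the lists of receptor, induction and brake genes stay near 0, and the neutrophil, exocrine pancreas and adipocyte markers spread furthest.

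Marker genes of the cells a node could hold were read beside these values. Of B cell markers 10 of 10, of T cell markers 9 of 10 and of node stroma and vessel markers 10 of 10 were measured, so the markers of lymph node tissue were present. None of the B cell markers was called. Of the 9 T cell markers 2 rose in the gastric node, Cd28 (0.33 ± 0.15) and Cd3g (0.32 ± 0.14), and of 8 cytotoxic cell markers 1 rose, Klrd1 (0.29 ± 0.11; SD, n = 4), against 3.09% of features. Of the 10 stroma and vessel markers 2 fell, Ltbr (-0.35 ± 0.15) and Madcam1 (-0.25 ± 0.09; SD, n = 4), which turned to 0.15 and 0.28 with median centring. With the scanner software's signals Cd28, Cd3g, Klrd1, Ltbr and Madcam1 did not pass (limma adjusted p from 0.059 to 0.0873). Plasmacytoid dendritic cells, the main makers of type I interferon, had 10 of 10 markers measured and none called, with medians of -0.03, 0.08, -0.08 and 0.03 in mice 1 to 4. Their surface marker Siglech had ratios of 0.7, -0.1, -0.55 and -0.31, highest in mouse 1. In the gastric node of mouse 2 these markers lay at a median of 0.09 above their own means, against 0.47 for the interferon-stimulated genes. Their part in the result was not tested.

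Macrophage and monocyte markers were lower in the gastric node for 7 of 14 measured, against 4.45% of features, with medians of -0.25, -0.6, -0.83 and -0.64, the lowest again in mouse 3. Adgre1, a surface receptor of macrophages, had -0.36, -1.78, -1.94 and -1.37 (mean -1.36 ± 0.71, SD, n = 4; limma adjusted p = 0.0433), and Cd163, a scavenger receptor, had a mean of -1.26 ± 0.3 (SD, n = 4; limma adjusted p = 0.0198). Of 8 dendritic cell markers measured 4 were lower, against the same 4.45%, among them Flt3, a growth factor receptor (-0.64 ± 0.2, SD, n = 4; limma adjusted p = 0.0257). The others called were Itgax, Batf3 and Fscn1. With median centring Itgax (0.15) and Batf3 (0.26) turned above 0, and Fscn1 (-0.12) did not pass (limma adjusted p = 0.419). With the scanner software's signals Itgax, Batf3, Fscn1 and Adgre1 did not pass (limma adjusted p from 0.0528 to 0.0644). In the gastric node of mouse 2 the macrophage markers lay at a median of 0.18 and the dendritic cell markers at a median of 0 from their own means. Lgals3bp and these markers were lower in the same node, and the part of macrophages in that result was not tested.

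Mouse 2 also stood apart in its pancreatico-duodenal node. The 3 neutrophil markers measured of 8 listed had medians of 0.08, -2.81, -0.38 and -0.3 in mice 1 to 4, and their level in the pancreatico-duodenal node of mouse 2 lay at a median of 1.8 above their own means. S100a9, an abundant neutrophil protein, had ratios of 0.31, -4.03, -1.92 and -0.3. Adipocyte markers had medians of 1.72, -1.93, 0.36 and -1.67 and lay 1.61 above their own means in that node. Their part in the result was not tested. The higher interferon-stimulated levels of mouse 2 lay in its other node, the gastric one, where neutrophil markers were at a median of -0.18.

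The share of probes well above background was 67.1 to 71.4% in the gastric channel and 59.6 to 62.6% in the pancreatico-duodenal channel, and no spot was saturated. All 36 genes were well above background in both channels on 4 of 4 arrays, with mean log2 intensities from 6.96 to 13.8. The number of arrays, 4, limits the precision. Of 17 further probes of these genes 11 passed the filter on dim signals, and 6 of the 11 were highest in mouse 2. These were the probes of Isg20, Irgm1, Trim25 and Ifit2, a probe of Ddx58 and a probe of Parp14. The brightest probes of Ddx58 and Parp14 were not highest in mouse 2. The share over all further probes on the array was not computed.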

How the data were processed

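Gene expression was measured on 4 two-colour Agilent arrays, 1 per NOD mouse, each pairing both nodes of that mouse. The deposited scanner files give mean and background intensity per spot. Agilent Feature Extraction 10.2.1.3 wrote them, per the file headers. A series table from the authors holds deposited log2 values that equal the log2 ratio of the software's processed signals, with column medians of -0.15, -0.06, -0.03 and -0.03. Scale and direction were settled by that match.

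Background correction was by normexp (offset 50) and dye normalization by loess within arrays, in limma 3.58.1 under R 4.3.3, and the package data.table (version 1.17.8) read the files. Control and outlier-flagged spots were left out. Probes well above background in one channel on at least 3 of 4 arrays were kept (27603 of 41174), and the brightest probe stood for a gene, which left 21320 features, 13400 of them with a symbol through RefSeq accessions on GRCm38.p6 (names and promoter windows only). The mean log2 ratio was tested against 0 with lmFit and eBayes at an adjusted p of 0.05. The procedure was tested on simulated data. Arrays correlated at r = 0.16 to 0.64 over features, which are not independent replicates. Channel levels were compared after Aquantile.

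All members with a probe are named. Of other lists, up to 4 called genes with the largest difference were followed, or the 2 brightest where none was called, and Ifng, Ifnb1, Ifnar1 and Siglech. Some of these are only counted in the text and not named. Cxcl10, Ifi204 and Iigp1 were picked outside this rule. One further gene of the rule is not reported here. The members and lists were chosen with earlier results of these data known, including that mouse 2 differed in sign. Alternatives covered background correction, normalization, the dim filter, probe choice, the series table, the moderation of variances, pairing, the threshold and each mouse left out.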

Additional observations from a re-analysis of the deposited data

Results flagged for a closer look

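The values here were singled out because 1 of the 4 mice lay far from the other 3, with a gap to its nearest neighbour that took up most of the range. Chance singles out about 1 in 20 sets of values; 6.24% of all features were singled out by their ratio, and 2 of the 36 interferon-stimulated genes. These 2 were Ddx58, at 0.25 in mouse 4 against -0.04 to -0.03 in the others, and Oasl1, at 0.87 in mouse 2 against -0.39 to -0.18. The further Ddx58 probes did not have mouse 4 as the highest. The median ratio of the 7 genes grouped as others was 0.33 in mouse 2 and -0.25 to -0.16 elsewhere.

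In levels of the gastric node, mouse 2 was the distant one for 8 genes. The share of all features singled out by level was not computed, so this count has no background. That mouse 2 differed was also known beforehand. Isg15 was at 10.4 (8.86 to 8.99 in the other mice), Ifit1 at 8.41 (6.89 to 7.1), Ifit3 at 10.83 (8.77 to 9.04) and Rtp4 at 11.74 (10.37 to 10.55). Oas3 was at 7.36 (6.83 to 6.91), Oasl1 at 8.99 (8.02 to 8.14), Oasl2 at 9.67 (8.52 to 8.6) and Cmpk2 at 7.39 (6.72 to 6.82). In the pancreatico-duodenal node, Ifi35 was at 11.17 in mouse 4 and at 11.38 to 11.4 in the others.

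Of the genes and lists read beside them, the neutrophil marker median was -2.81 in mouse 2 and -0.38 to 0.08 in the others. Shisa5 was at 0.26 and Cd163 at -0.82 in mouse 1, against 0.36 to 0.38 and -1.46 to -1.37. C1qa, a complement component, was at -1.26 and Itgax, the dendritic cell integrin CD11c, at -0.6 in mouse 3, against -0.86 to -0.78 and -0.32 to -0.3.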

How the results depend on the processing

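Mouse 2 had 31 to 36 members above 0, more than any other mouse, under the 8 alternatives that give this count. With the scanner software's processed signals and with the authors' series table, 8 of 36 genes lay above 0 in mouse 3, against 59.2 and 59.1% of features. Features called lower were then 569 and 584, and pathway genes 1 higher and 1 lower in each. Median centring in place of loess called 12821 features higher and 2066 lower (659 and 949 with loess), 19 interferon-stimulated genes higher and 0 lower, and 73 pathway genes higher and 1 lower. The list's median was then 0.41 beside 0.32 for all features. In mice 1, 3 and 4, 24, 22 and 32 genes then lay above 0, against 74.9, 74.2 and 75% of all features. Relative to all features, mouse 2 was at 0.59 and the other mice at -0.12 to -0.01. With median centring the mean ratio changed sign in 14 of 36 members and 8 of 31 other named genes. With a call under loess or median centring these were Dhx58 (0.44), Gbp3 (0.54), Bst2 (0.36), Ifitm3 (0.32), Ifi35 (0.34), Lgals3bp (0.17), Irf5 (0.23), Spib (0.49), Itgax (0.15), Batf3 (0.26), Ltbr (0.15) and Madcam1 (0.28). The other 8 members and 2 genes had no call in either (0.01 to 0.44 and 0.03 to 0.28). The cause was not tested. Scaling the arrays called 1071 features higher and 1 member higher, Igtp. The mean of a gene's probes called 1 member and 1 pathway gene higher. Moderation with trend and robust settings called 0 features in either direction, so 0 members lower and 0 pathway genes higher or lower. A threshold of 0.1 gave 2151 higher and 2055 lower features, 1 higher and 4 lower members, and 9 higher and 7 lower pathway genes.

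The ratio pairs the nodes of a mouse. Without that pairing (unpaired channels, no replicate block) 335 features were higher and 568 lower, and 0 members higher and 1 lower. Leaving out 1 mouse gave 0 to 844 features higher and 0 to 1323 lower, 0 to 2 members higher and 0 to 1 lower, and 0 to 3 pathway genes higher and 0 to 5 lower. Without mouse 1, 2, 3 or 4 the means of 7, 7, 9 and 7 members changed sign, none with a call. With 2 level settings added after the data were seen, 34 and 35 genes were highest in the gastric node of mouse 2.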
